A study of Mus musculus with 6 samples.

Results

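The genes described here encode the adaptors and kinases that carry signals from Toll-like receptors and tumour necrosis factor receptors to NF-κB and to the interferon regulatory factors. They were chosen by name, with earlier results of these data known. The 10 genes are Traf1, Traf2, Traf3 and Traf6 (TNF receptor-associated factors), Chuk, Ikbkb and Ikbkg (the subunits of the canonical IκB kinase, IKK), Ikbke and Tbk1 (the IKK-related kinases), and Map3k8 (the kinase also called TPL2). All 10 symbols were found among the 54532 genes of the table, each in 1 row, and all 10 passed the filter on low values, which asks that 3 or more of the 6 libraries reach 1 FPKM, the fragments counted per gene divided by its length and by library size.

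Expression was measured by RNA sequencing of bulk mouse macrophages, in 3 control and 3 SAHH-KO libraries. Per the labels, the cells of both groups were primary peritoneal macrophages elicited with thioglycollate for 4 days, purified by 6 h of adherence and then stimulated for 8 h with 2 ng/mL interferon-γ plus 10 ng/mL lipopolysaccharide. The control cells are called shControl in the sample titles and WT in the genotype field, and the other cells SAHH-KO in the titles and SAHH knockdown in the genotype field, with no strain, age, Cre driver or hairpin given. SAHH is S-adenosylhomocysteine hydrolase, the enzyme that removes the by-product of methylation reactions. Unstimulated cells are not analysed here. The labels do not say if the replicates came from different animals or dishes, so p-values reflect only how far these samples spread, and that spread may be technical.

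TRAF proteins bind the cytoplasmic part of activated receptors or their adaptors, and most of them are ubiquitin ligases whose chains recruit further kinases. The canonical IKK complex then phosphorylates the IκB proteins, which releases NF-κB to the nucleus. TBK1 and IKKε, the product of Ikbke, phosphorylate IRF3 and IRF7 and so lead to type I interferon, while MAP3K8 links lipopolysaccharide to the ERK kinases. In macrophages these routes set the size of the inflammatory and interferon responses to bacterial products.

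The promoters of the genes with the 2 largest rises (Ikbke and Traf1), of Tbk1, the partner kinase of Ikbke, and of Traf3, which fell the most, are shown first, for reference beside their values; whether they bear on the changes was not tested. They are RefSeq sequences of build GRCm38.p6, 5′ to 3′ on the strand of the gene, upstream of the gene start. They lie at chr1:131279607-131279813 (minus strand), chr2:34961773-34962022 (minus strand), chr10:121586795-121587044 (minus strand) and chr12:111166120-111166369 (plus strand). Each stretch ends upstream of the start in both RefSeq and GENCODE. Capitals mark the NF-κB motif, found in Traf3.
Ikbke: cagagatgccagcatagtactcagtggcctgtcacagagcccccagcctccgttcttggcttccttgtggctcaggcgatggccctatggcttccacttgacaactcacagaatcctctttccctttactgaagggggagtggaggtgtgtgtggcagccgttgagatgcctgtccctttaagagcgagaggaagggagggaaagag
Traf1: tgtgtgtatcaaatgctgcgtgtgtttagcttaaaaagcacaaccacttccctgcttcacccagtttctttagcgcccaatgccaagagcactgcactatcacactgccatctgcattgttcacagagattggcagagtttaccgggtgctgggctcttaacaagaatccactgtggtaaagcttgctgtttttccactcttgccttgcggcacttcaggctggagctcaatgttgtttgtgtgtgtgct
Tbk1: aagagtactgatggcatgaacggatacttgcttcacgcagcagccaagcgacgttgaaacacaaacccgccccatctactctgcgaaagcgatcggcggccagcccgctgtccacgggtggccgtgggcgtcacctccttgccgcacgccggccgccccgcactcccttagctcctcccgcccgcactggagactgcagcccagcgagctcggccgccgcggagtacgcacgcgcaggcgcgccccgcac
Traf3: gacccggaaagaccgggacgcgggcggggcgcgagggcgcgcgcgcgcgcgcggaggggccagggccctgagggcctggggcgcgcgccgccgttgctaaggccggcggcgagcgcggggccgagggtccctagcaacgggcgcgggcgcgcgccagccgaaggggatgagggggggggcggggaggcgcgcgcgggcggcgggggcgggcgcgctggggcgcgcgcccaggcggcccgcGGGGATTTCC
Promoter entries, from 250 bases before to 50 bases after a start, were found for 8 of the 10 genes, 11 entries in all, since Ikbkg has 4. Both strands were searched for 5 motifs: the NF-κB motif, the core of the interferon-stimulated response element (ISRE; GAAA, any 2 bases, GAAA), the interferon-γ-activated site TTCNNNGAA, the AP-1 motif TGANTCA and the cyclic AMP response element TGACGTCA. These letters are found in 8.46%, 3.44%, 8.30%, 7.81% and 1.79% of the 32851 promoter entries of the same length. The NF-κB letters occurred in the Traf3 entry alone, at positions -10 to -1 before the start, and Traf3 was lower in SAHH-KO. An AP-1 match lay at the Ikbke start (positions -6 to 1 of the RefSeq start, past the end of the stretch shown) and in 3 of the 4 Ikbkg entries, and a match to the interferon-γ-activated site lay in Chuk (positions -201 to -193). No 2 of these matches overlapped. The entries of Traf1, Traf2, Traf6 and Tbk1 held none of the 5 motifs, and no entry held the ISRE core or the cyclic AMP response element, which says only that these letters are not in these windows. The promoters differed more in CpG content. The Traf1 and Ikbke entries, set apart after their rises were known, had 4 CpG dinucleotides each, at 48.7% and 54.0% GC. The first entries of the other 6 genes had 15 to 59 CpG, at 51.7% to 84.0% GC. Entries 2, 3 and 4 of Ikbkg, which was not called, had 0, 13 and 10 CpG, at 46.0%, 57.3% and 49.0% GC. The median over all entries was 7 CpG.

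The targeted gene was low in the SAHH-KO libraries. Ahcy, which encodes SAHH, read 25.8, 22.6 and 24.4 FPKM in the control libraries and 5.51, 5.50 and 6.23 FPKM in SAHH-KO, and the groups did not overlap (limma log2 fold change -1.90, SE 0.0873). Of its 50-base words 66.0% also occur in the gene Gm4737, so reads of this pair cannot be told apart with certainty, and Gm4737 stood at 66.2 ± 2.51 and 18.0 ± 2.50 FPKM (SD, n = 3). Libraries held 15540442 to 17748745 assigned reads. The labelled cell type was checked against 8 macrophage markers, of which 7 reached 1 FPKM and 1, Mertk, did not (0.00430 FPKM in control). The summed level of the 8 was 8344 to 8645 FPKM in control and 9320 to 10586 FPKM in SAHH-KO, and 4 of them (Adgre1, Itgam, Fcgr1 and Cd14) were higher in SAHH-KO. Of the markers of B, T, NK, dendritic and mast cells, eosinophils, fibroblasts and mesothelium, none reached 1 FPKM, and of 6 neutrophil markers S100a8 alone did, with sums of 4.13 to 5.10 FPKM in control and 0 to 0.473 FPKM in SAHH-KO. The part of these marker changes in the results below was not tested, and in bulk samples fewer cells of a type and less RNA per cell cannot be told apart.

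Of the 10 genes, 6 were higher in SAHH-KO (Traf1, Traf2, Ikbkb, Ikbke, Tbk1 and Map3k8), 2 were lower (Traf3 and Traf6) and 2 were not called (Chuk and Ikbkg). The call is an adjusted p under 0.05 from limma, fitted on log2(FPKM + 1) and adjusted over all 10362 genes tested. Over all of these 53.3% were called, 26.4% higher and 26.8% lower. For the same 8 genes all SAHH-KO libraries lay on 1 side of all control libraries, against 62.3% of all genes tested (30.7% higher and 31.6% lower). The median log2 fold change was 0.29 for the 10 genes and -0.01 for all genes tested, and the median of its size was 0.37 against 0.32. The 10 genes were chosen with earlier results of these data known, so their direction is not independent evidence. The calls depend in part on library scaling: scaling to TPM or to assigned reads shifts the median of all genes by -0.14 on the log2 scale, and under either one 4 of the 10 genes, Traf1, Ikbke, Tbk1 and Map3k8, were called higher and the same 2 lower. Over all genes the split moved from 2736 higher and 2782 lower to 2014 and 3898 with TPM and to 2033 and 3905 with assigned reads.

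**Figure D1:**
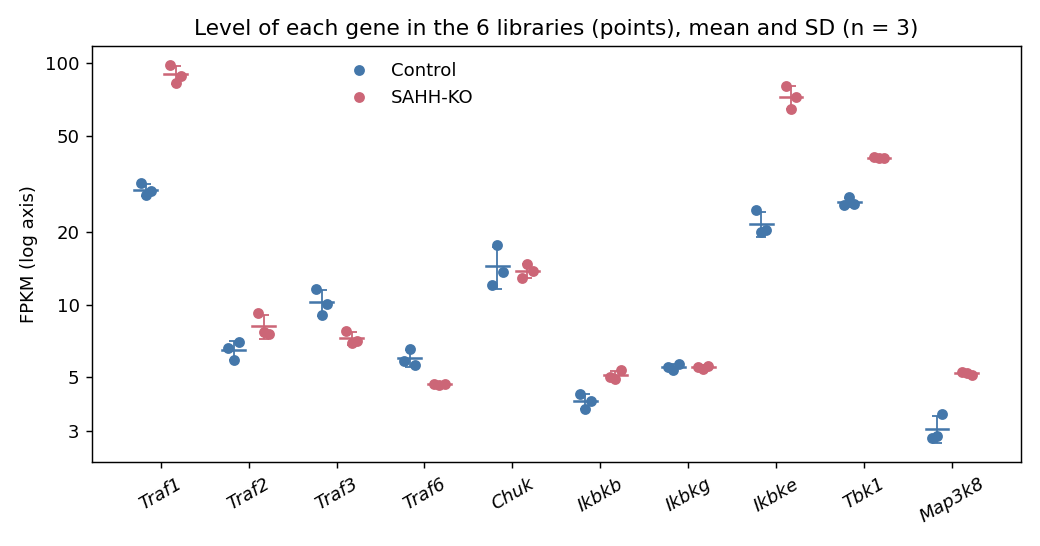
FPKM (log axis) of the 10 genes in the 3 control (blue) and 3 SAHH-KO (red) libraries, with points for libraries, a line for the mean and bars for the SD. Traf1 and Ikbke lie between 64.5 and 97.9 FPKM in SAHH-KO and between 19.9 and 31.8 FPKM in control, while the points of Chuk and Ikbkg overlap.

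Among the adaptors, Traf1 rose 2.99-fold, Traf2 was 1.26-fold higher with a call that did not hold up, and Traf3 and Traf6 fell to 70.8% and 78.2% of the control mean. TRAF1 lacks the RING domain of the other TRAFs, binds TRAF2, and is itself a known NF-κB target. Traf1 (ENSMUSG00000026875, GRCm38 chromosome 2, 34941750 to 34961772, minus strand) read 31.8, 28.3 and 29.4 FPKM in control replicates 1 to 3 and 97.9, 82.2 and 87.9 FPKM in SAHH-KO. The lowest SAHH-KO library was more than 50 FPKM above the highest control library. Its mean went from 29.9 ± 1.78 to 89.4 ± 7.96 FPKM (SD, n = 3), with a log2 fold change of 1.55 (SE 0.0899, limma adjusted p = 4.83e-06). On log2(FPKM + 1), which understates changes of low genes, 399 of the 10362 genes tested had a larger log2 fold change in size than Traf1.

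TRAF2 is the adaptor through which tumour necrosis factor receptors recruit the cIAP ubiquitin ligases. Traf2 (ENSMUSG00000026942, chromosome 2, 25517982 to 25546940, minus strand) read 6.59, 5.89 and 6.98 FPKM in control and 9.24, 7.73 and 7.53 FPKM in SAHH-KO. The groups did not overlap, but they came within 1 FPKM of each other. The log2 difference of 0.29 (SE 0.103) had an adjusted p of 0.0424 from limma, on 492 to 784 reads per library. The call was lost when any 1 of the 6 libraries was left out (limma adjusted p = 0.0561 to 0.139), and under TPM and assigned-read scaling (0.241 and 0.243).

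TRAF3 restrains the non-canonical NF-κB route by holding the kinase NIK for degradation, and it is needed for the activation of TBK1 downstream of Toll-like receptors. Traf3 (ENSMUSG00000021277, chromosome 12, 111166370 to 111267153, plus strand) read 11.6, 9.09 and 10.1 FPKM in control and 7.80, 6.93 and 7.06 FPKM in SAHH-KO. Every SAHH-KO library was below every control library. The mean went from 10.3 ± 1.28 to 7.26 ± 0.470 FPKM, a log2 fold change of -0.44 (SE 0.103, limma adjusted p = 0.00705), and the call held under each alternative tried.

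TRAF6 is the ubiquitin ligase downstream of MyD88 in Toll-like and interleukin-1 receptor signalling. Traf6 (ENSMUSG00000027164, chromosome 2, 101678429 to 101701669, plus strand) read 5.83, 6.53 and 5.63 FPKM in control and 4.70, 4.67 and 4.71 FPKM in SAHH-KO. The SAHH-KO libraries lay within 0.1 FPKM of each other and all below control. The log2 difference was -0.30 (SE 0.0848), with an adjusted p of 0.0181 from limma. The call was lost without SAHH-KO replicate 2 or replicate 3 (limma adjusted p = 0.0530 and 0.0645), with the fall of the same size.

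The subunits of the canonical IKK complex changed little. Chuk encodes IKKα, Ikbkb encodes IKKβ, the main kinase of IκBα, and Ikbkg encodes NEMO, the regulatory subunit that binds ubiquitin chains. Ikbkb (ENSMUSG00000031537, chromosome 8, 22659212 to 22706589, minus strand) read 4.25, 3.71 and 4.00 FPKM in control and 5.003, 4.93 and 5.37 FPKM in SAHH-KO. Its groups did not overlap, and the mean went from 3.99 ± 0.272 to 5.10 ± 0.236 FPKM (log2 fold change 0.29, SE 0.0858, limma adjusted p = 0.0201). The call was lost without control replicate 3 or SAHH-KO replicate 3 (limma adjusted p = 0.0637 and 0.0939), and under TPM and assigned-read scaling, where the log2 fold change was 0.16 under both (adjusted p = 0.161 and 0.145).

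Chuk (ENSMUSG00000025199, chromosome 19, 44073335 to 44107480, minus strand) read 12.1, 17.7 and 13.6 FPKM in control and 12.9, 14.8 and 13.8 FPKM in SAHH-KO, so that all SAHH-KO values lay inside the control range. Its log2 fold change was -0.05, with a 95% interval of -0.35 to 0.26 (limma adjusted p = 0.790). Control replicate 2 was the high one, and without it the log2 fold change was 0.10 (adjusted p = 0.407). Ikbkg (ENSMUSG00000004221, chromosome X, 74393290 to 74453854, plus strand) read 5.54, 5.37 and 5.66 FPKM in control and 5.54, 5.41 and 5.59 FPKM in SAHH-KO, the narrowest spread of the 10 genes in control. Its 95% interval was -0.18 to 0.17 (log2 fold change 0.00, limma adjusted p = 0.984). Of its exon bases 5.15% overlap exons of G6pdx on the other strand, a gene at 108 FPKM on average, and the sources used here do not say if strand was used in counting.

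**Figure D2:**
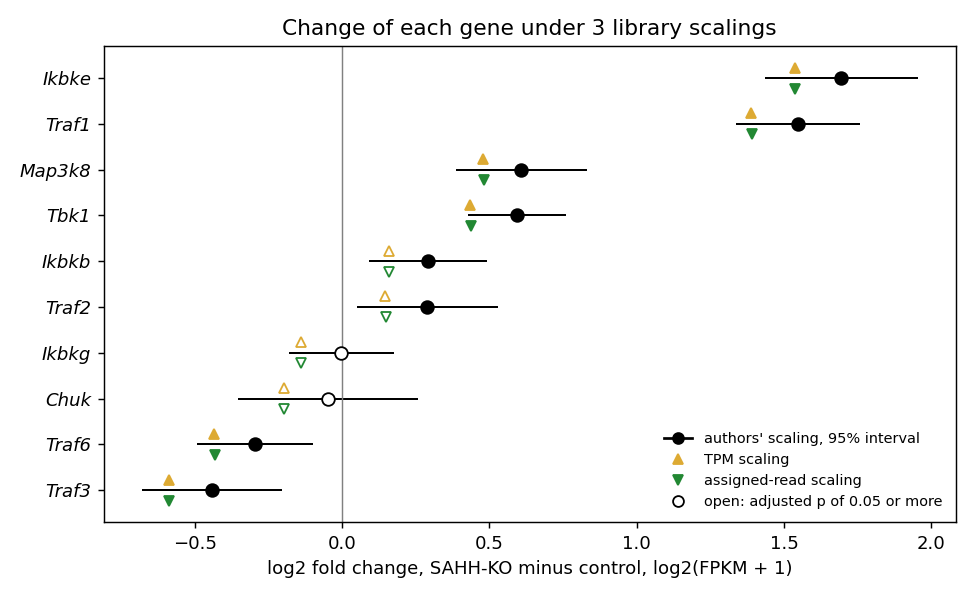
Log2 fold change (SAHH-KO minus control, log2(FPKM + 1)) of the 10 genes with the authors' scaling (circles, with 95% interval), TPM scaling (upward triangles) and assigned-read scaling (downward triangles), where open symbols have an adjusted p of 0.05 or more. Ikbke (1.70) and Traf1 (1.55) stand apart from the rest, and the symbols of Traf2 and Ikbkb are open under both other scalings.

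The IKK-related kinases both rose, Ikbke 3.34-fold and Tbk1 1.53-fold. Their products are close relatives that share the scaffolds TANK, NAP1 and SINTBAD. TBK1 is made in most cell types, while Ikbke is known as a gene induced by inflammatory stimuli. Ikbke (ENSMUSG00000042349, chromosome 1, 131254343 to 131279606, minus strand) read 24.5, 19.9 and 20.4 FPKM in control and 80.4, 64.5 and 71.9 FPKM in SAHH-KO. The groups were far apart, and SAHH-KO replicate 1 was the highest library, as it was for Traf1. The mean went from 21.6 ± 2.53 to 72.3 ± 7.95 FPKM (log2 fold change 1.70, SE 0.111, limma adjusted p = 8.74e-06). On log2(FPKM + 1), which understates changes of low genes, 308 of the 10362 genes tested had a larger log2 fold change in size than Ikbke. Of its exon bases 2.48% overlap the genes Gm28914 and Gm28913 on the other strand.

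Tbk1 (ENSMUSG00000020115, chromosome 10, 121546455 to 121586787, minus strand) read 25.8, 27.7 and 25.9 FPKM in control and 40.8, 40.3 and 40.2 FPKM in SAHH-KO. The SAHH-KO libraries lay within 1 FPKM of each other. The mean went from 26.5 ± 1.08 to 40.4 ± 0.331 FPKM (log2 fold change 0.59, SE 0.0715, limma adjusted p = 0.000228). Under TPM scaling it was still called, at 0.44.

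Map3k8 rose 1.69-fold. MAP3K8 is held inactive by NF-κB p105, the product of Nfkb1, and is freed when IKKβ has p105 degraded. Map3k8 (ENSMUSG00000024235, chromosome 18, 4331327 to 4353015, minus strand) read 2.81, 2.87 and 3.54 FPKM in control and 5.27, 5.19 and 5.12 FPKM in SAHH-KO. Control replicate 3 was above the other control libraries and still below all SAHH-KO libraries. The mean went from 3.07 ± 0.404 to 5.20 ± 0.0750 FPKM (log2 fold change 0.61, SE 0.0960, limma adjusted p = 0.000960), on 212 to 395 reads per library, the fewest of the 10 genes.

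Of the 10 genes, 2 rose at least 2-fold (Traf1 and Ikbke), and 9.04% of all genes tested did so. The SD was smaller in SAHH-KO than in control for 7 of the 10. Each SD rests on 3 libraries, and the share over all genes was not computed, so this is not a trait of the 10 genes. In control the order of the mean levels, in FPKM, was Traf1, Tbk1, Ikbke, Chuk, Traf3, Traf2, Traf6, Ikbkg, Ikbkb and Map3k8, and the ranges of Traf2 and Traf6 and of Traf6 and Ikbkg overlapped. In SAHH-KO it was Traf1, Ikbke, Tbk1, Chuk, Traf2, Traf3, Ikbkg, Map3k8, Ikbkb and Traf6, where Traf2 overlapped Traf3 and Map3k8 overlapped Ikbkb. On this scale Ikbke was below Tbk1 in control and above it in SAHH-KO, and the means of Traf2 and Traf3 changed places. Levels of different genes rest on the gene length the authors divided by, which for all 10 is the union of all annotated exons and longer than the longest coding transcript, from 1.04 times in Traf3 to 19078 against 3977 bases in Ikbkb. Counted per kilobase of that transcript instead, Ikbkb stood at 19.1 ± 1.30 in control and ranked 5 of the 10 instead of 9. On that scale Ikbke was above Tbk1 in both groups (60.0 ± 7.02 against 34.2 ± 1.39 in control), so their order in control depends on the length used. The mean of Traf2 was also above that of Traf3 in both groups on that scale. They stood at 10.9 ± 0.933 and 10.7 ± 1.33 in control, and at 13.7 ± 1.57 and 7.56 ± 0.490 in SAHH-KO. Changes between groups do not depend on this length beyond the effect of the pseudocount.

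Ratios between 2 genes in the same library do not depend on library scaling. Of 6 ratios compared, 3 did not overlap between the groups. The Ikbke to Tbk1 ratio was 0.819 ± 0.120 in control and 1.79 ± 0.185 in SAHH-KO, with every SAHH-KO library above every control library. The length used sets the level of this ratio but not its change. The Traf1 to Traf2 ratio went from 4.62 ± 0.350 to 11.0 ± 0.612. The Ikbkg to Ikbkb ratio went from 1.39 ± 0.0757 to 1.08 ± 0.0359. For each of these 3 the exact two-sided permutation test gave p = 0.1, the smallest that 3 against 3 libraries allow, and 0.2 adjusted over the 6 ratios, so none can pass 0.05. The Ikbkb to Chuk ratio (0.285 ± 0.0711 and 0.370 ± 0.0316, exact permutation p = 0.2, adjusted 0.3), the Traf3 to Traf6 ratio (1.72 ± 0.306 and 1.55 ± 0.0961, p = 0.5, adjusted 0.5) and the ratio of Map3k8 to its inhibitor gene Nfkb1 (0.0569 ± 0.0111 and 0.0505 ± 0.00164, p = 0.5, adjusted 0.5) overlapped between the groups.

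**Figure D3:**
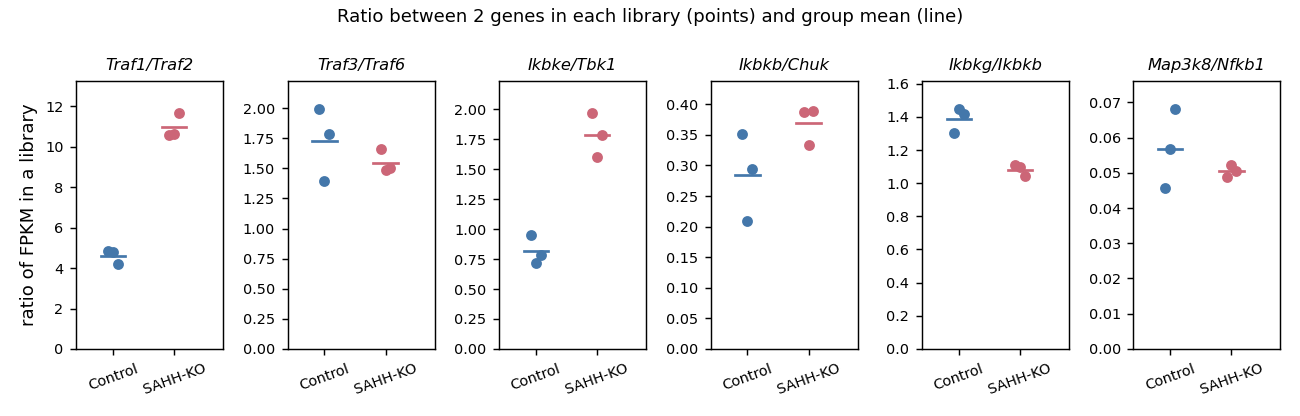
Ratio of the FPKM of 2 genes within each library (points) with the group mean (line), for control (blue) and SAHH-KO (red), each axis starting at 0. The Traf1 to Traf2, Ikbke to Tbk1 and Ikbkg to Ikbkb ratios separate the groups, and the other 3 overlap.

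Other genes of these routes were taken from 8 lists of 72 genes in all, 3 of them in 2 lists. In SAHH-KO 35 of the 66 tested were called higher and 7 called lower (53.0% and 10.6%, against 26.4% and 26.8% of all genes tested), with a median log2 fold change of 0.36. The lists were drawn up with results of these data known, so their direction is not independent evidence. With TPM or assigned-read scaling 30 were higher and 10 lower, and the calls of Traf3ip2, Tbkbp1, Xiap, Rbck1 and Sharpin were lost. Of the 42 calls, 8 were lost on leaving out 1 library (adjusted p = 0.0518 to 0.123), among them those of Traf3ip1, Traf3ip2, Tbkbp1, Tnip3, Xiap, Rbck1 and Sharpin.

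Of the other TRAF genes, Traf5, a relative of Traf3 and Traf2, rose from 0.984 ± 0.281 to 3.31 ± 0.497 FPKM (log2 fold change 1.12, limma adjusted p = 0.000225). Traf5 read 1.29, 0.909 and 0.747 FPKM in control and passed the filter on low values only through the SAHH-KO libraries. Its being tested thus depended on its rise. Traf7 lay at 12.3 and 12.5 FPKM and was not called, and Traf4, at 0.993 and 0.898 FPKM, was below the filter. Among 8 genes whose products bind or regulate TRAFs, 7 were tested, 3 were higher and 2 lower (median 0.31). These are 42.9% and 28.6%, against 26.4% and 26.8% of all genes tested. Trafd1, which encodes a TRAF-type zinc finger protein known to be induced by interferon, rose 9.65-fold, from 7.46 ± 1.47 to 72.1 ± 4.23 FPKM. Tifa, an adaptor that brings TRAF6 together, rose 2.79-fold, and Traf3ip2 stood at 7.52 and 9.53 FPKM (adjusted p = 0.0164, and 0.0585 and 0.0628 without control replicate 3 and SAHH-KO replicate 2). Traip fell to 40.4% of its control mean and is also a gene of DNA replication repair. It read 0.603, 0.900 and 0.724 FPKM in SAHH-KO and passed the filter only through the control libraries, where it was higher. Traf3ip1, a cilium gene, was at 70.2% (adjusted p = 0.0292, and 0.0518 to 0.107 on leaving out any 1 library but control replicate 2).

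Of the scaffolds and partners of IKK and TBK1, 8 were tested, 3 were higher and 1 lower (median 0.24). These are 37.5% and 12.5%, against 26.4% and 26.8% of all genes tested, and rest on few genes. Azi2, which encodes the TBK1 scaffold NAP1, rose from 11.3 ± 1.87 to 21.4 ± 0.955 FPKM, and Tnip2, which encodes the MAP3K8 partner ABIN2, from 6.87 ± 0.886 to 11.6 ± 0.767 FPKM. Tbkbp1, which encodes SINTBAD, stood at 30.8 and 41.2 FPKM (adjusted p = 0.0438, and 0.0767 to 0.123 on leaving out any 1 library but control replicate 1). Tank, the scaffold that gave TBK1 its name, was not called (17.7 ± 3.90 and 22.7 ± 0.396 FPKM, limma adjusted p = 0.0608). Tnip3 stood at 8.34 and 5.83 FPKM (adjusted p = 0.0223, and 0.0569 to 0.0717 without control replicate 2, control replicate 3 or SAHH-KO replicate 1).

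Ubiquitin-writing genes upstream of IKK were higher for 8 of 9 tested and lower for 1 (median 0.82). These are 88.9% and 11.1%, against 26.4% and 26.8% of all genes tested. Rnf31, which encodes HOIP, the catalytic subunit of the linear ubiquitin ligase, rose 2.92-fold. Birc2 and Birc3, which encode the cIAP ligases bound by TRAF2, rose 2.82-fold and 2.35-fold, and Peli1 and Trim25 rose 2.12-fold and 1.77-fold. The other subunits of the linear ligase moved less: Rbck1 was at 16.1 and 20.7 FPKM and Sharpin was 1.28-fold higher (adjusted p = 0.0176 and 0.0157). Rbck1 was lost without control replicate 3 or SAHH-KO replicate 1 (adjusted p = 0.0652 and 0.0644) and Sharpin without SAHH-KO replicate 1 or replicate 3 (0.0586 and 0.0643). Xiap was at 15.5 and 20.3 FPKM (adjusted p = 0.0443, and 0.0782 to 0.120 on leaving out any 1 library but control replicate 2). The lower gene was Ube2n, which encodes UBC13, the enzyme that works with TRAF6 to make lysine-linked chains, at 27.0 ± 2.90 and 18.6 ± 2.56 FPKM (log2 fold change -0.52, limma adjusted p = 0.00650).

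Among 13 kinases and kinase partners upstream of or parallel to IKK, 4 were higher and 9 not called (median 0.12). The share higher was 30.8%, near the 26.4% of all genes tested. Irak2, Tab2 and Map3k5 rose 2.54-fold, 1.81-fold and 1.78-fold, and Ripk2 rose from 34.2 to 51.4 FPKM. Map3k7, the TAK1 kinase that phosphorylates IKKβ, and Map3k14, the NIK kinase that TRAF3 restrains, were not called (adjusted p = 0.247 and 0.274) and lay at 12.6 and 11.2 FPKM and at 1.98 and 2.34 FPKM. Of 6 ubiquitin erasers and inhibitors, 2 were higher, 1 was lower and 3 were not called. The shares higher and lower were 33.3% and 16.7%, against 26.4% and 26.8% of all genes tested. Tnfaip3, which encodes A20, rose 2.15-fold and Usp18, a remover of the ubiquitin-like ISG15, 10.7-fold. Otulin, which cuts linear chains, fell to 65.6% of its control mean.

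The genes listed as encoding protein targets of the kinases were higher for 12 of 14 (85.7%, against 26.4% of all genes tested, median 1.20). These are RNA levels, and the activity of the kinases was not measured. Nfkbie, Nfkb2, Irf5 and Nfkbia rose 6.48-fold, 3.21-fold, 2.98-fold and 2.56-fold, and Irf7 2.26-fold. Exons of Nfkb2, Nfkbib and Irf5 overlap those of other genes on the opposite strand over 18.1%, 16.4% and 14.1% of their bases, which limits their levels. For Nfkb2 the share is of 4584 bases in GENCODE M21, while the deposited length is 3289, so it may differ for the deposited values. The genes not called were Irf3, at 9.22 ± 0.564 and 9.84 ± 0.604 FPKM, and Tmem173, which encodes STING, at 12.5 ± 0.864 and 12.2 ± 0.794 FPKM (limma adjusted p = 0.427 and 0.743). Around MAP3K8, 4 of 10 genes were higher (Nfkb1, Mapk3, Map2k1 and Tnip2) and 2 lower (median 0.10). Of all genes tested 26.4% were higher and 26.8% lower, and the MAP3K8 counts rest on few genes. Map2k1, which encodes the ERK kinase MEK1, rose 1.67-fold and Mapk3, which encodes ERK1, 1.77-fold. Elk1, a transcription factor that ERK phosphorylates, fell to 71.0% of its control mean.

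**Figure D4:**
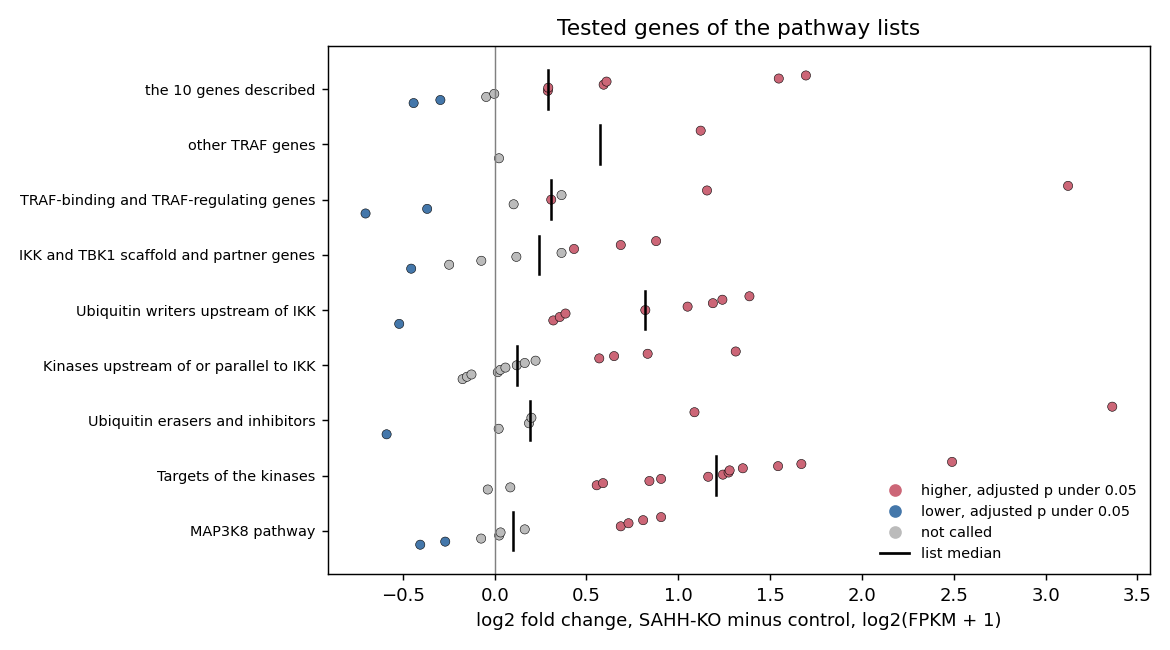
Log2 fold change (SAHH-KO minus control, log2(FPKM + 1)) of each tested gene in the 8 pathway lists and of the 10 genes described, 1 point per gene, with a black line for the median and colour for the call. The medians of the targets of the kinases (1.20) and the ubiquitin writers (0.82) lie farthest to the right. Those of the MAP3K8 pathway (0.10) and of the kinases upstream of or parallel to IKK (0.12) lie nearest 0.

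The profiles most like those of the extreme genes were found as the smallest distance over the 6 libraries, on log2(FPKM + 1) minus the control mean, among 9046 protein-coding genes tested. For Ikbke the nearest was Nfkb2 (distance 0.0783), which encodes the NF-κB subunit p100, followed by Pycr1 (0.155), an enzyme of proline synthesis, and Akna (0.158), a gene for an AT-hook protein. For Traf3 they were Arhgap27 (0.0562), Psap (0.0947), which encodes the precursor of the saposins, and Mtr (0.104), which encodes methionine synthase. These distances describe likeness over 2 groups of 3 libraries, so most of each is the size of the change: Akna, for example, rose from 18.9 ± 3.08 to 60.0 ± 7.60 FPKM, and Mtr fell from 6.29 ± 0.624 to 4.36 ± 0.0879 FPKM.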

How the data were processed

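RNA was sequenced from 3 control and 3 SAHH-KO macrophage libraries. The deposited table gives FPKM for every gene, 1 column per library. STAR, featureCounts, Trim Galore and FastQC, with builds mm10 and GRCm38, are named per the submitters' processing notes. Versions, strand setting and annotation are not given in the sources used here. FPKM times gene length gave whole multiples of 1 step per library (100% within 0.01 of a read), so reads per gene and library sizes were worked out: 15540442 to 17748745 reads were assigned per library, and the sizes behind the FPKM were on average 1.06 times that in control and 0.95 times in SAHH-KO. Without molecular identifiers, reads are not independent molecules. The 10362 genes that reached 1 FPKM in 3 or more libraries were tested on log2(FPKM + 1) with limma 3.58.1 in R 4.3.3 (lmFit and eBayes, trend on), two-sided, Benjamini-Hochberg adjusted p under 0.05. This scale understates changes of low genes, so folds given for genes are ratios of mean FPKM. No 2 libraries held identical values, and each counted as 1 replicate. On simulated data with known changes, the share of false calls was above the nominal level. Far fewer genes were changed there than were called here, so that share does not measure the false calls in these data.

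The members and lists were chosen with earlier results of these data known. Named were Ahcy, the members, up to 4 list genes with the smallest p, small counts by name, and the 3 nearest profiles of the member with the largest rise and the largest fall. Other list genes were named after their values were seen. The values of 1 list gene are not reported here. Of the 72 list symbols 1 (Sting1) matched by an older symbol, Tmem173. Coordinates, exons and 50-base words came from GENCODE M21 (GRCm38), where all 10 members have the deposited coordinates, and promoters from RefSeq (GRCm38.p6). Alternatives were another pseudocount (0.1), filters, scalings, a replicate block, leaving out each library and, chosen after seeing the data, voom from limma on the recovered reads.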

Additional observations from a re-analysis of the deposited data

How the results depend on the processing

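For Traf1, Traf3, Ikbke, Tbk1 and Map3k8 the direction and the call held under all 13 alternatives. Ikbke ranged from 1.54 to 1.79, Traf1 from 1.39 to 1.60, Tbk1 from 0.44 to 0.63, Map3k8 from 0.48 to 0.76 and Traf3 from -0.59 to -0.36 on the log2 scale. Traf2 was called under 3 of the 13. Its log2 fold change was 0.29 and not called with no filter on low values or with a filter of 0.1 FPKM (limma adjusted p = 0.0945 and 0.0574), and 0.15 with TPM and with assigned-read scaling. Ikbkb was at 0.16 and not called with TPM and with assigned-read scaling. These scalings move all genes down, and other filters change the number of genes tested. Leaving out 1 library, the log2 fold changes ranged from 0.21 to 0.34 for Traf2, from -0.33 to -0.24 for Traf6, from 0.25 to 0.33 for Ikbkb, from -0.16 to 0.10 for Chuk and from -0.0192 to 0.0129 for Ikbkg, and Chuk and Ikbkg, which were never called, changed sign. The number of the 10 genes called lower was then 1 to 2 and called higher 4 to 5, and that of pathway genes called lower 4 to 6, with fewer samples in each fit.

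The correlations of deviations of equally numbered libraries 1, 2 and 3 across groups were 0.0955, 0.101 and -0.00556. Control replicates 1 and 2 each correlated best with the SAHH-KO library of the same number, but control replicate 3 with SAHH-KO replicate 2 (0.0284). These small values do not settle if the replicates were prepared in pairs. With the replicate block 2729 genes were higher and 2761 lower, and the same calls were made for all 10 genes. Leaving out 1 library, the log2 differences of the 3 ratios that separated the groups ranged from 1.18 to 1.28 (Traf1 to Traf2), from 1.04 to 1.24 (Ikbke to Tbk1) and from -0.40 to -0.33 (Ikbkg to Ikbkb). The others moved by over 1.5 times: Traf3 to Traf6 went from -0.14 to -0.03 without control replicate 1 and to -0.29 without control replicate 2, and Ikbkb to Chuk from 0.41 to 0.20 without control replicate 2. Map3k8 to Nfkb1 went from -0.15 to -0.30 without control replicate 1, to -0.02 without control replicate 3 and to -0.30 with a pseudocount of 1. A negative binomial test on the recovered reads was planned only where such reads are accepted as counts, which reads worked out from FPKM and gene length were not here, and it was not run. With voom on those reads, 6 of the 10 genes were higher and 2 lower, as reported. Depth limits Map3k8 most, with 212 to 395 reads per library.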
